A study of Mus musculus with 8 samples.

Results

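The receptors and ligands of the epidermal growth factor and neuregulin family were followed in pressure-loaded mouse ventricle through the probe sets of 8 listed genes: the receptors Egfr, Erbb2, Erbb3 and Erbb4, the ligands Nrg1, Hbegf and Areg, and the receptor inhibitor Errfi1. A probe set, a group of short probes against a transcript, was taken when the platform annotation gave it exactly 1 gene symbol and that symbol was a listed gene. This gave 16 probe sets for 7 of the 8 genes, out of 45101 probe sets on the array. No probe set carried the symbol Areg in the annotation used, so Areg was not analysed here. The list was drawn up with earlier results of these arrays in view, Erbb3's group difference among them, and low probe sets were marked, as the rule asks, on their levels in the same arrays, so neither is a finding. Members were thus chosen by family and partly selected on known log2 values. Egfr had 7 probe sets, Erbb3, Hbegf and Errfi1 had 2 each, and Erbb2, Erbb4 and Nrg1 had 1 each.

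All 8 mice were male, on the inbred FVB background, 8 to 12 weeks of age, and all had undergone ascending aortic banding 1 week earlier, an operation that narrows the aorta above the heart so that the ventricle works against a raised pressure. In 4 of them the mlc2v promoter, active in ventricular muscle, drove a CHF1/Hey2 transgene, and the other 4 were wild type. CHF1/Hey2 is a hairy-related protein that binds DNA and represses transcription. Total RNA came from whole ventricle, so myocytes and the other cells of the heart were measured together, and no unbanded hearts were analysed here. The labels name the replicates as numbered samples of a group and do not say more about litters or days of operation.

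In this family a ligand binds the outer part of a receptor, receptors pair, and the paired kinases phosphorylate each other and recruit adaptors that feed the Ras and PI3K cascades. Erbb2 has no known ligand of its own and acts as a partner, Erbb3 binds neuregulins but has an impaired kinase, and Egfr and Erbb4 bind ligands and signal by themselves. In the heart, neuregulin 1 released by endothelium acts on Erbb4 and Erbb2 of the myocytes, and Erbb2 is needed for a normal ventricle. Errfi1, also called Mig-6, binds the kinase of active receptors and dampens them.

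Expression was read as log2 values processed with GCRMA, where a difference of 1 is a 2-fold change. A probe set was marked as low when its mean over the 8 arrays was below 5, and 7 of the 16 were marked. The other 9, from Egfr, Erbb2, Erbb3, Hbegf and Errfi1, also lay above 5 in at least 4 of the 8 arrays and were tested together with all other such probe sets, 16017 in all. Just inside the mark was Egfr 1424932_at, with a mean of 5.17, and the nearest outside was Erbb4 1427783_at, with 3.47. Levels of different probe sets are not comparable with each other, so each probe set is described against itself.

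The arrays were unequal. Across tested probe sets, r between transgenic replicate 2 and any other array was 0.784 to 0.834, and 39.5% of its values differed over 2-fold from the median of the remaining arrays. That share was 8.76% in transgenic replicate 3 and at most 2.68% in the other 6 arrays. The median SD of a tested probe set was 0.51 among arrays labelled transgenic and 0.20 among wild-type arrays. The Hey2 probe set averaged 5.96 ± 0.24 in arrays labelled transgenic and 6.07 ± 0.47 in the wild-type ones (SD, n = 4 each). Whether it reads the transgene is not known, so it does not check the labels, and the groups are called by their labels. Myocyte markers, 8 of 8 measured, had mean log2 levels of 14.68 to 15.21 in arrays labelled transgenic and 15.09 to 15.17 in wild-type arrays.

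None of the 9 tested probe sets passed between banded ventricles labelled transgenic and those of wild type (limma, Benjamini-Hochberg adjusted p of 0.830 or more). Over all 16017 probe sets 0 passed, 0% in each direction, with adjusted p of 0.830 or more. An unadjusted limma p under 0.05 was reached by 206 probe sets, 1.29% of those tested (0.849% higher and 0.437% lower). Of the 9, Erbb3 1434606_at, higher, and Egfr 1435888_at, lower, were among them. Erbb3 was already known to stand near the top of this comparison when the genes were listed, so nothing is read from these 2. The 95% confidence interval of a tested probe set reached, at the median, 0.64 to either side of its difference. In bulk tissue, fewer cells of a type and less RNA for each cell cannot be told apart.

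Erbb3, the neuregulin receptor with the weak kinase, had the clearest separation of the groups. Its probe set 1434606_at read 7.53, 7.96, 7.40 and 7.87 in transgenic replicates 1 to 4, against 7.05, 7.08, 7.14 and 6.69 in wild-type replicates 1 to 4. The groups did not overlap, and the lowest value of the transgenic group lay 0.26 above the highest wild-type value. Erbb3 averaged 7.69 ± 0.27 in the transgenic group and 6.99 ± 0.20 in wild type (SD, n = 4 each), 0.70 higher on the log2 scale or 1.63-fold (95% confidence interval 1.19 to 2.22). It did not pass over all probe sets (limma adjusted p = 0.830). Its unadjusted limma p of 0.0064 ranked 6 of 16017, smallest first. The gene was listed with this difference known, so the interval and the rank do not support it. Complete separation in this direction was found for 250 tested probe sets, 1.56%, in the opposite direction for 0.549%, and in either direction for 338, 2.11%. A difference at least as large, in either direction, was found for 7.08% of tested probe sets.

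The Erbb3 difference was of similar size without the arrays that stood apart, which describes the values the gene was listed on and does not test them. It was 0.61 without transgenic replicate 2, 0.80 without replicate 3 and 0.71 without both, the last from 2 against 4 arrays. Wild-type replicate 4 held the lowest value, and without any single array the difference stayed between 0.60 and 0.80. The second probe set of Erbb3, 1452482_at, was marked as low. It read 2.63, 3.78, 2.77 and 2.64 in the arrays labelled transgenic and 2.66, 2.64, 2.69 and 2.65 in wild type. Only transgenic replicate 2 left the floor there, so this probe set gives no reading of the difference seen with the first.

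Erbb3 is also expressed by Schwann cells and other neural crest derivatives, and markers of those and other cells are given beside it. Of 7 Schwann and neural crest markers, 5 had a probe set with a single symbol, and 0 exceeded the filter. The 4 atrial myocyte markers, all measured, had mean levels of 11.31 to 11.95 in arrays labelled transgenic and 10.94 to 11.65 in wild-type arrays. Of them 3 were higher, Myl7, Myl4 and Sln, by 0.71, 0.67 and 0.64, and Nppa was lower, by 0.44, and none passed (limma adjusted p of 0.830 or more). The median deviation of the atrial list from the wild-type mean was 0.08, 0.84, 0.66 and 0.70 in transgenic replicates 1 to 4 and 0.41, -0.35, -0.23 and 0.12 in wild-type replicates 1 to 4. Fibroblast and epicardial markers had lower means: 7 of 8 and 2 of 3 measured ones were lower, with medians of -0.45 and -0.25 (-0.13 and 0.07 without transgenic replicates 2 and 3), and none passed. The part of these tissues in the Erbb3 difference was not tested.

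**Figure D1:**
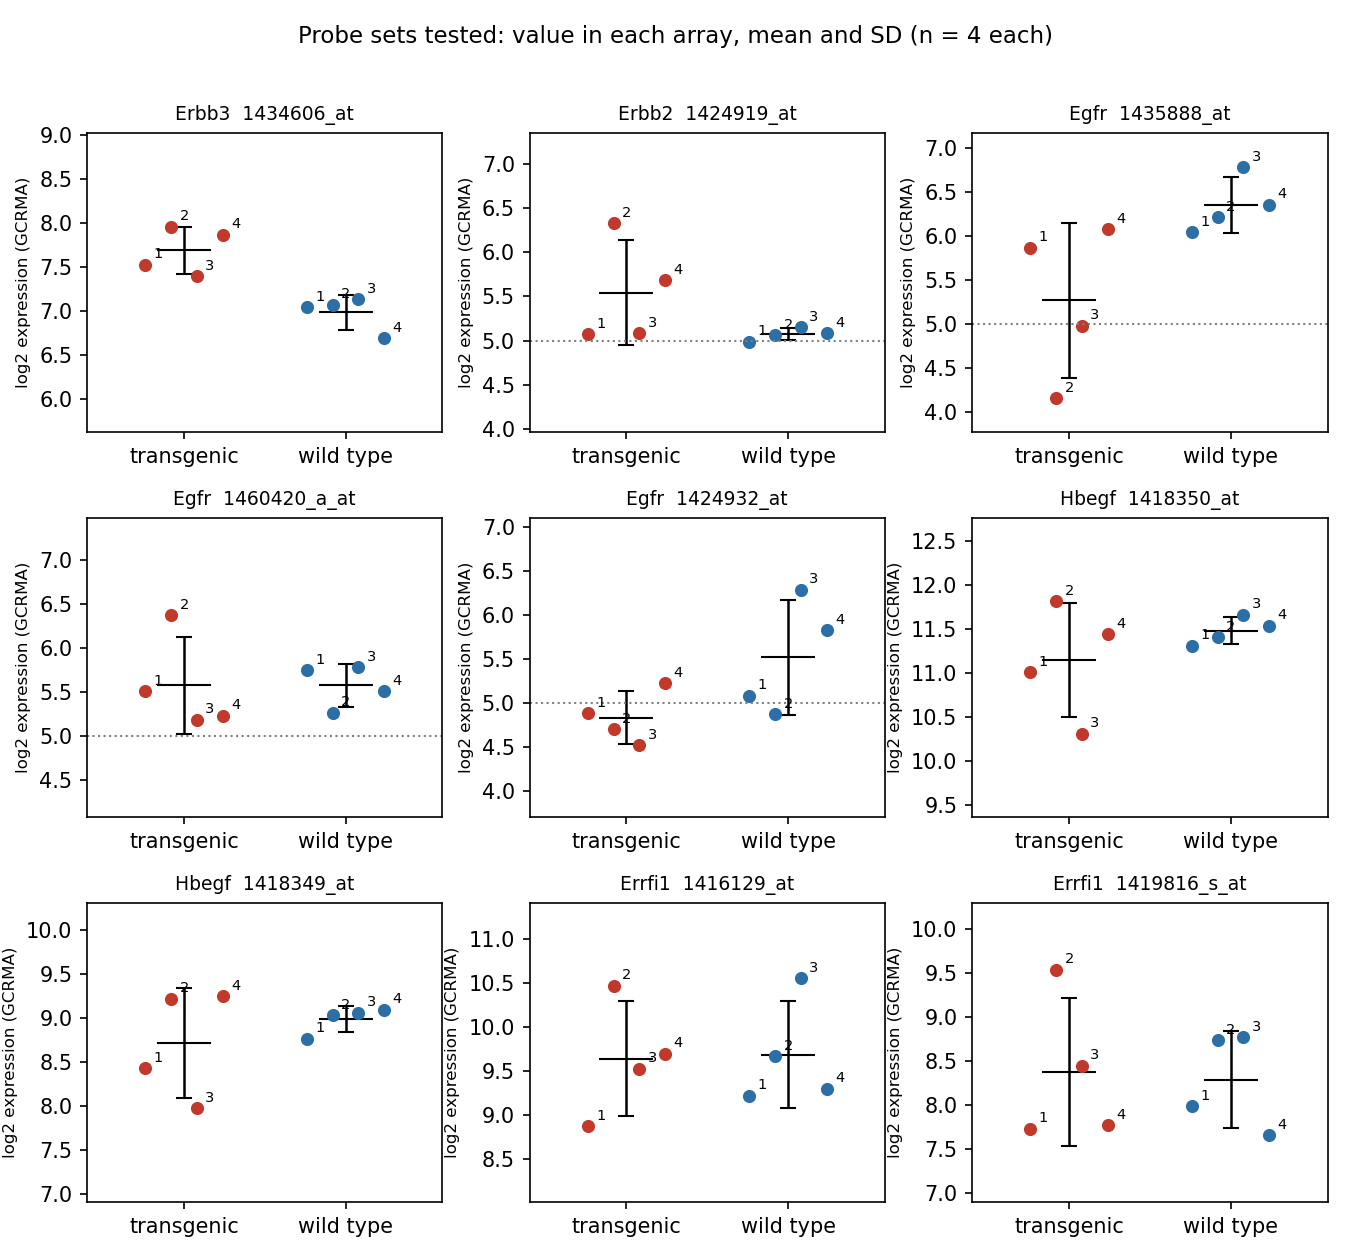
Log2 expression in each array for the 9 tested probe sets, transgenic left and wild type right, with points numbered by replicate, the horizontal bar at the group mean, whiskers of 1 SD (n = 4 each) and a dotted line at log2 5. Every panel spans the same height. Only Erbb3 1434606_at has groups that do not overlap, and transgenic replicate 2 is the highest point of 5 panels.

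Erbb2, the partner receptor, was near the mark of 5 in most hearts and higher in a pair of arrays labelled transgenic. Its probe set 1424919_at read 5.07, 6.33, 5.09 and 5.69 in transgenic replicates 1 to 4, against 4.99, 5.06, 5.15 and 5.09 in wild type. Replicates 2 and 4 lay above every wild-type array, replicates 1 and 3 within the wild-type range. Erbb2 averaged 5.54 ± 0.60 in the transgenic group and 5.07 ± 0.07 in wild type (SD, n = 4 each), and the means differed by 0.47 (95% confidence interval -0.18 to 1.13; limma adjusted p = 0.830). Without transgenic replicate 2 the difference was 0.21. The wild-type values sat within 0.2 of the mark, in the range where GCRMA compresses differences.

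Erbb4, the main myocyte receptor of neuregulin, could not be read with its probe set here. 1427783_at lay between 3.38 and 3.92 in arrays labelled transgenic and between 3.21 and 3.48 in wild type, and 0 of 8 arrays exceeded 5. The highest value was again that of transgenic replicate 2. A low value of 1 probe set, on a method that pulls weak signals to a floor, does not show that the transcript was missing.

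Egfr, the receptor of EGF, HB-EGF and amphiregulin, gave readings that differed between its probe sets. Probe set 1435888_at was the lowest relative to wild type, with 5.87, 4.16, 4.98 and 6.07 in transgenic replicates 1 to 4, against 6.04, 6.21, 6.78 and 6.35 in wild type. Replicates 1 to 3 lay below every wild-type array, while replicate 4 lay just above the lowest of them. The probe set averaged 5.27 ± 0.88 in the transgenic group and 6.35 ± 0.32 in wild type (SD, n = 4 each), which is -1.08 on the log2 scale or 0.474-fold (95% confidence interval 0.246 to 0.914), which did not pass (limma adjusted p = 0.830; unadjusted p = 0.0303). A difference at least as large was found for 1.19% of tested probe sets. The size rested on the arrays that stood apart: it was -0.71 without transgenic replicate 2 and -0.38 without replicates 2 and 3.

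Probe set 1424932_at of Egfr was lower too, but less evenly. It read 4.89, 4.70, 4.52 and 5.22 in arrays labelled transgenic, against 5.08, 4.87, 6.29 and 5.82 in wild type. Only 1 array labelled transgenic and 3 wild-type arrays exceeded 5, and the groups overlapped. The difference was -0.68 (95% confidence interval -1.44 to 0.07; limma adjusted p = 0.830), with -0.43 without wild-type replicate 3 and -0.46 without transgenic replicates 2 and 3.

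The third tested probe set of Egfr, 1460420_a_at, had nearly equal group means. It read 5.52, 6.38, 5.19 and 5.24 in arrays labelled transgenic and 5.75, 5.27, 5.79 and 5.51 in wild type, a difference of 0.00 (95% confidence interval -0.65 to 0.66; limma adjusted p = 0.998). In transgenic replicate 2 it lay 0.80 above the wild-type mean, whereas 1435888_at of the same gene lay 2.19 below its own in the same array. Without that array all 3 tested probe sets of Egfr had a lower mean in the transgenic group, by 0.71, 0.26 and 0.64 in the order given by their level. None passed (limma adjusted p = 0.975 each). The array left out is the one in which 1460420_a_at stood high, so their shared direction lends no support to a lower Egfr. Probe set 1424932_at, moreover, entered the test with 3 of its 4 arrays above 5 from wild type. The remaining 4 probe sets of Egfr, 1432647_at, 1451530_at, 1457563_at and 1454313_at, were marked as low, exceeded 5 in 0 of 8 arrays and differed between the groups by at most 0.04. Which transcripts of Egfr each probe set reads was not analysed here.

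**Figure D2:**
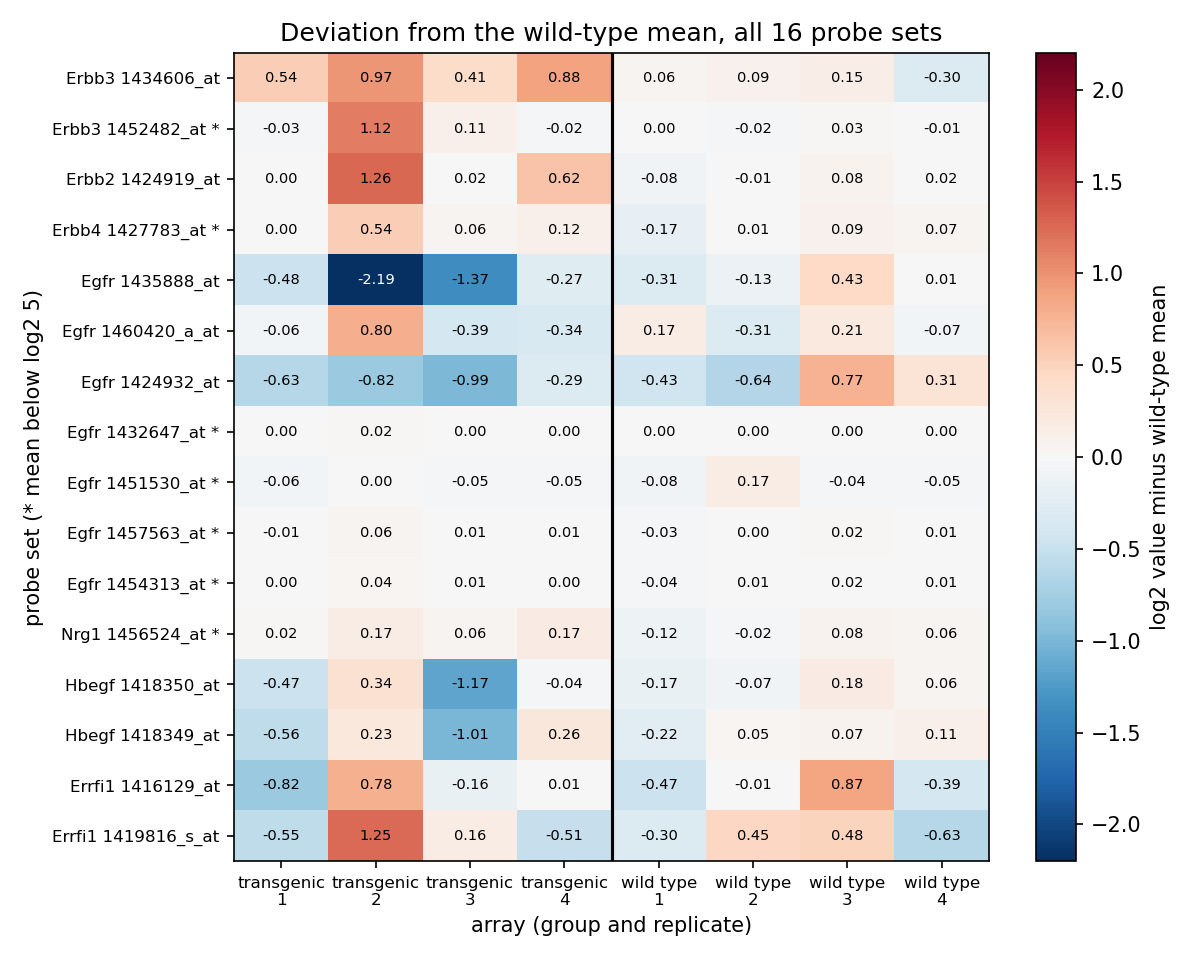
Log2 value minus the wild-type mean of the same probe set, for all 16 probe sets (rows, low ones with an asterisk) in the 4 transgenic arrays (left of the line) and the 4 wild-type arrays. Transgenic replicate 2 holds the extremes of Egfr 1435888_at, at -2.19, and of Erbb2, at 1.26, and transgenic replicate 3 those of both Hbegf probe sets, at -1.17 and -1.01.

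Among ligands, Nrg1, which encodes neuregulin 1, lay at the floor. Its probe set 1456524_at lay between 3.15 and 3.30 in arrays labelled transgenic and between 3.01 and 3.21 in wild type, and its whole range over 8 arrays was 0.29. It exceeded 5 in 0 arrays and was not tested. When no filter was applied, the 7 low probe sets of the family had limma adjusted p of 0.832 or more.

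Hbegf, which encodes the heparin-binding EGF-like growth factor, a ligand of Egfr and Erbb4 that is cleaved from the cell surface, was measured far above 5 by 2 probe sets that ordered the low arrays alike. Probe set 1418350_at read 11.01, 11.81, 10.31 and 11.44 in transgenic replicates 1 to 4, against 11.31, 11.41, 11.66 and 11.54 in wild type. Probe set 1418349_at read 8.43, 9.22, 7.98 and 9.25, against 8.77, 9.04, 9.06 and 9.10. In both, transgenic replicates 3 and 1 were the lowest of all 8 arrays and the groups overlapped. The differences were -0.34 (95% confidence interval -1.04 to 0.37) and -0.27 (-0.96 to 0.42), each with a limma adjusted p of 0.830. Without transgenic replicate 3 they were -0.06 and -0.02, and without replicate 2 they were -0.56 and -0.44. The spread of 1418350_at was an SD of 0.65 in the transgenic group and 0.15 in wild type (n = 4 each).

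Endothelial, macrophage and smooth muscle cells are among the sources of Hbegf. Over the 8 measured macrophage markers the median deviation from the wild-type mean was -1.10 in transgenic replicate 3, the lowest array of Hbegf, and 0.30 in transgenic replicate 1, the second lowest. Their mean level ranged from 9.18 to 10.90 in arrays labelled transgenic and from 9.88 to 10.58 in wild type. The 8 endothelial markers, all with a higher mean in the transgenic group and none past the threshold, had a median difference of 0.29, or 0.09 without transgenic replicate 2. Their median deviation was 0.04 in replicate 3, and their mean levels ranged from 9.29 to 9.93 in arrays labelled transgenic and from 9.08 to 9.55 in wild type. The median deviations of the endothelial and macrophage lists were 0.82 and 0.83 in transgenic replicate 2. Those of the smooth muscle and pericyte list were 0.10, 0.98, -0.19 and -0.01 in transgenic replicates 1 to 4. For the myocyte list they were 0.08, -0.28, 0.06 and 0.05 in the same arrays. The fibroblast list, 8 of 8 measured, had median deviations of 0.07, -0.22, -0.81 and -0.22 in transgenic replicates 1 to 4 and between -0.13 and 0.16 in wild-type arrays. Its mean levels ranged from 10.86 to 12.55 in arrays labelled transgenic and from 12.35 to 12.59 in wild type. The part of these cells in the Hbegf and Egfr values, and in those of the ligand-releasing and processing genes given further on, was not tested.

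Errfi1, the feedback inhibitor of the receptors, differed more between mice of the same group than between groups. Probe set 1416129_at read 8.87, 10.47, 9.52 and 9.69 in transgenic replicates 1 to 4, against 9.22, 9.67, 10.55 and 9.30 in wild type. The lowest and the highest array stood in different groups, and the SD was 0.66 in the transgenic group and 0.61 in wild type (n = 4 each). Probe set 1419816_s_at read 7.73, 9.54, 8.45 and 7.77, against 7.98, 8.73, 8.77 and 7.66. The differences were -0.05 (95% confidence interval -0.96 to 0.87; limma adjusted p = 0.972) and 0.09 (-0.93 to 1.10; limma adjusted p = 0.947). These intervals leave room for changes of about 2-fold either way. Without transgenic replicates 2 and 3 both differences were negative, -0.40 and -0.53.

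**Figure D3:**
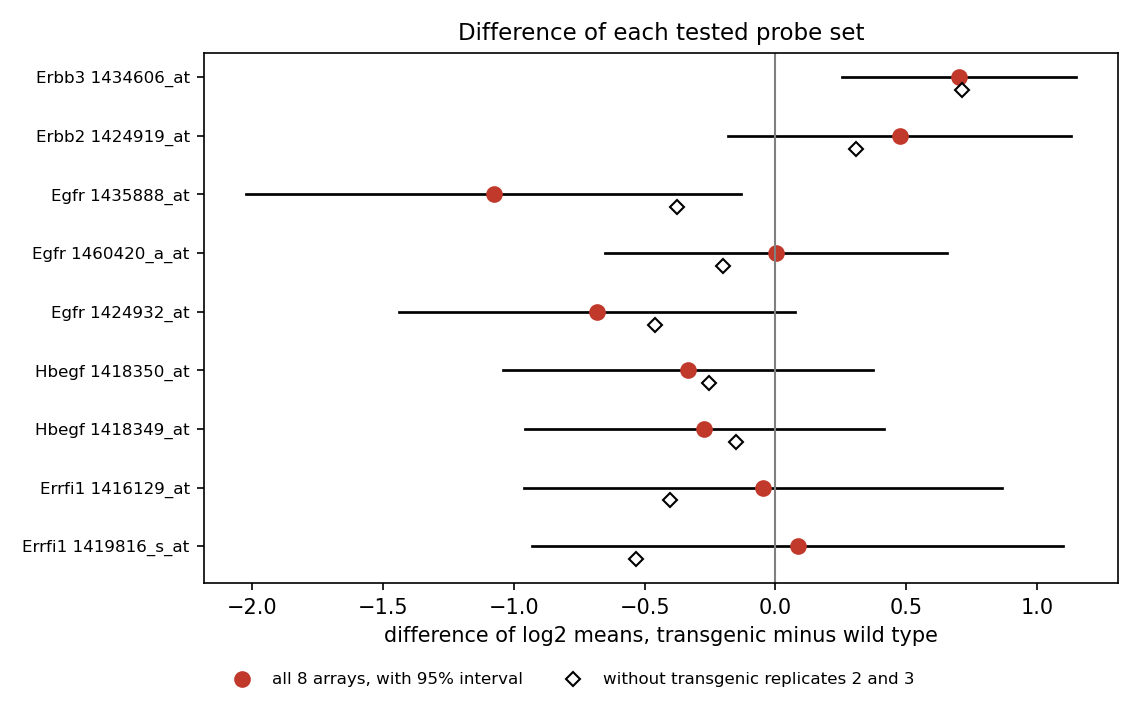
Difference of the log2 means, transgenic minus wild type, for the 9 tested probe sets (rows), with filled circles for all 8 arrays, lines for their 95% confidence interval and open diamonds for the difference without transgenic replicates 2 and 3. The intervals of Erbb3 1434606_at and Egfr 1435888_at do not include 0, and the diamond of Erbb3, at 0.71, stays beside its circle at 0.70.

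Of the 9 tested probe sets 4 had a higher and 5 a lower mean in arrays labelled transgenic. Transgenic replicate 2 held the highest value of 5 of them and transgenic replicate 3 the lowest of 4. In replicate 2, 3 of the 9 differed over 2-fold from the median of the remaining arrays, where 39.5% of all tested probe sets did, and in replicate 3 it was also 3 of the 9, where 8.76% of all did.

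The upstream regions of Egfr, Erbb2 and Errfi1, which have tested probe sets, are shown because the transgene encodes a repressor that binds DNA. Hairy-related factors bind E-box and class C sequences, of which CACGTG and CACGCG were searched on both strands. The GC box GGCGGG, a common promoter element, was searched in the same way. From RefSeq (build GRCm38.p6), 6 windows of 300 bases were read, from 250 before to 50 after an annotated start. They covered 5 of the genes, Egfr, Erbb2, Erbb4, Areg and Errfi1, of which Erbb4 and Areg had no tested probe set. No window was read for Erbb3, Hbegf or Nrg1. The counts cover only the windows read, and RefSeq may hold others. CACGTG was found in 0 of the 6 windows and in 7.15% of all 32851 windows of this length, and CACGCG in 0 of the 6 and in 9.27% of all. GGCGGG or its complement was found in 5 of the 6 windows and in 35.3% of all. Errfi1 had 2 annotated starts. The window of the downstream start, chr4:150854820-150855119 on the plus strand, held 3 matches, and that of the upstream start held 0. Matches did not overlap. The windows of Egfr (chr11:16751953-16752252, plus strand), Erbb2 (chr11:98412234-98412533, plus strand) and this start of Errfi1 follow, 5′ to 3′, with the GC box or its complement in capitals. They describe sequence and say nothing of binding in these hearts.
Egfr: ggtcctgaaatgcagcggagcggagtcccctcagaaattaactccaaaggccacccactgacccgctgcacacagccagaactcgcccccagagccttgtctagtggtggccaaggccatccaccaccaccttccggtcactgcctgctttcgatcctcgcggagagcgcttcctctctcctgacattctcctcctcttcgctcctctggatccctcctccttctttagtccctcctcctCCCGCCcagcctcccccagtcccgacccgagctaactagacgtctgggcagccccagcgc
Erbb2: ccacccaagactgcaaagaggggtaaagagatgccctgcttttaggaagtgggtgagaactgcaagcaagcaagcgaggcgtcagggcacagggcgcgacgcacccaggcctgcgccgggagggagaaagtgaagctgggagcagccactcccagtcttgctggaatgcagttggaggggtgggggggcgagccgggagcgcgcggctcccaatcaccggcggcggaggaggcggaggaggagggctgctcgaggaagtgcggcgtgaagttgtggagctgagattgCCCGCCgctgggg
Errfi1: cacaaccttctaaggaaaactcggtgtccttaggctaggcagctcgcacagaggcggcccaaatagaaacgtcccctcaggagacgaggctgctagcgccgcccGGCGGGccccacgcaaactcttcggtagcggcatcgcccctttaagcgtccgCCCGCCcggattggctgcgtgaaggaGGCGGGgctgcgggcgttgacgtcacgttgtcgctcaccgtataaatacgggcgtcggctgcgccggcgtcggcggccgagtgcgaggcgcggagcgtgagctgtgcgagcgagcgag

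The genes around the receptors were described by 7 lists with 108 genes, of which 80 were measured. No gene passed (limma, 0 of 80, against 0% of the 9607 genes measured), and 0 had an unadjusted limma p under 0.05, against 1.46% of all genes. Of the 80, 42 had a higher and 38 a lower mean in arrays labelled transgenic, where 57% of all genes had a higher one, and the median difference was 0.02, against 0.06 over all genes.

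The other ligands of the family, Egf, Tgfa, Btc, Ereg, Epgn, Nrg2, Nrg3 and Nrg4, were all on the array and 0 of these 8 exceeded the filter. Sheddases, the proteases that release membrane-bound ligands, shared a list with processing genes such as Furin, Pcsk5, Rhbdf1 and Rhbdf2. This mixed list had a lower mean in 8 of 12 members and a median difference of -0.24. The median was -0.01 without transgenic replicate 3 and 0.06 without replicates 2 and 3. Adam9, Adam10 and Adam12, membrane metalloproteases, differed by -0.93, -0.68 and -0.45 (limma adjusted p = 0.830 each). Adam10 read 10.75, 8.93, 9.93 and 10.93 in transgenic replicates 1 to 4, against 10.82, 10.67, 10.93 and 10.82 in wild type. For Adam10, replicates 2 and 3 alone left the wild-type range downwards. Without them the differences of Adam9, Adam10 and Adam12 were 0.15, 0.03 and -0.27, and that of Adam12 was -0.54 without replicate 2 and -0.25 without replicate 3.

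Adaptors and the phosphatase Ptpn11, which link receptors to Ras, had 7 of 12 members higher and a median of 0.04. Sos1, an exchange factor of Ras, Crk and Crkl, adaptors, differed by -0.73, -0.51 and 0.18. Without transgenic replicate 2 the differences of Sos1 and Crk were -0.02 and -0.01. The Ras and MAPK list had 3 of 6 members higher and a median of -0.17, with Nras, Braf and Rps6ka3 at -0.37, -0.60 and -0.63. Without transgenic replicate 2 the median of this list was -0.01, and Nras, Braf and Rps6ka3 were at -0.20, -0.05 and 0.02. The PI3K and Akt list had 7 of 14 members higher and a median of -0.04 (0.05 without transgenic replicate 2). Pik3cd, a catalytic subunit of PI3K, differed by -0.68 and the kinase Akt2 by 0.47. Without transgenic replicates 2 and 3 these differences were -0.50 and 0.10. Rictor, a subunit of mTOR complex 2, differed by -1.07, but transgenic replicate 2 held it at 2.99 while the remaining 7 arrays lay between 7.03 and 7.46, with a difference of 0.00 without that array.

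Inhibitors and trafficking proteins, the functional neighbours of Errfi1, had 14 of 24 members higher and a median of 0.03, with -0.06 without transgenic replicate 2 and 0.17 without replicate 3. Cblb, a ubiquitin ligase that marks receptors for breakdown, and Spred1, an inhibitor of Ras signalling, differed by -0.53 and -0.68, and Spry4, a sprouty inhibitor, by 0.32. In transgenic replicate 2 Spred1 was at 6.54, and no other array was below 8.38. Immediate targets of the pathway had a higher mean in 7 of 12 members and a median difference of 0.04. This median was -0.15 without transgenic replicate 2 and 0.23 without replicate 3. Fos and Fosl2, subunits of the AP-1 factor, differed by -0.64 and -0.27 and Ier3, an early response gene, by 0.39. Fos read 6.46, 8.42, 5.74 and 7.27 in arrays labelled transgenic and 6.72, 8.12, 7.94 and 7.70 in wild type, so that the groups overlapped.

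**Figure D4:**
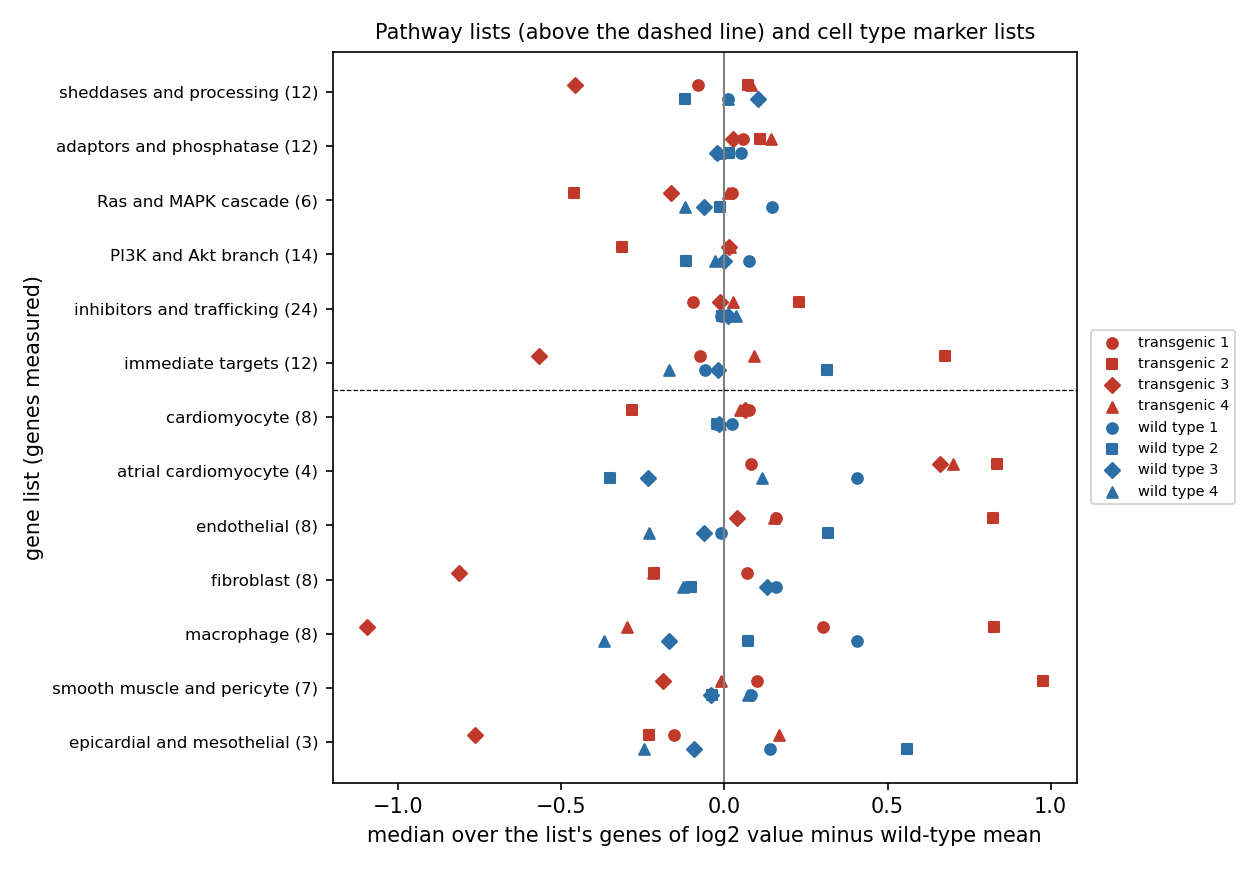
Median over a list's measured genes of the log2 value minus the wild-type mean (horizontal axis), for each array (red transgenic, blue wild type, symbol by replicate) and each list (rows, with the number of genes measured), pathway lists above the dashed line and marker lists below it. Transgenic replicates 2 and 3 hold most of the far points, such as 0.68 in replicate 2 and -0.57 in replicate 3 for the immediate targets.

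The genes whose values over the 8 arrays ran most like each tested member were found by Pearson's r over the arrays, as a description, in which transgenic replicate 2 weighs heavily. For Erbb3 1434606_at they were Inmt, an indole amine methyltransferase, Slc35e3 and Ppp1r16b, at r of 0.96, 0.95 and 0.95, and at 0.97, 0.98 and 0.96 over the 6 arrays without transgenic replicates 2 and 3. For Erbb2 they were Txnl4b, Slc39a3 and Sh3bp4, at 0.99 each, and at 0.98, 0.97 and 0.97 over the 6 arrays. For Egfr 1435888_at they were Cald1, Bcl2 and Apaf1, at 0.99, 0.98 and 0.98, and at 0.90, 0.84 and 0.81 over the 6 arrays. For Hbegf 1418350_at they were Armcx2, Fancf and Ano6, at 0.99, 0.98 and 0.98, and at 0.92, 0.93 and 0.88 over the 6 arrays. For Errfi1 1416129_at they were Zfp592, Ddit4 and Nacc1, at 0.98, 0.97 and 0.97, and at 1.00, 0.96 and 0.98 over the 6 arrays. With 8 arrays and 16017 probe sets, high values of r are reached by many pairs.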

How the data were processed

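RNA of whole ventricle from 8 banded mice was measured on Affymetrix Mouse Genome 430 2.0 arrays, each mouse on an array of its own, per the labels' protocols. What the authors deposited are log2 values, for which the submitters' processing notes give GCRMA with no version. GCRMA corrects background by probe base composition, normalizes arrays by quantiles and summarizes each probe set. It leaves weak probe sets at a floor that hardly varies.

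Of 45101 probe sets, 34945 had exactly 1 gene symbol in the platform annotation and were not controls. Those above log2 5 in at least 4 of the 8 arrays, 16017 in all, entered lmFit and eBayes (no trend) of limma 3.58.1, run in R 4.3.3, for transgenic minus wild type, with Benjamini-Hochberg adjustment over all 16017 at 0.05. Groups came from the sample titles. Intervals are 95% confidence intervals of the same fit. In gene lists, a gene was read by its highest probe set on average. The text names every member, 3 genes of each pathway list by smallest p, the 3 nearest patterns of each tested member, and Hey2. The atrial markers and the gene names beyond this rule were chosen after their values were seen. The members and lists were chosen with earlier results of these data known. The steps were tested on simulated data. Alternatives changed the filter, scaling, model, probe set rule, test and threshold, and left out each array in turn, and transgenic replicates 2 and 3 together. Deviations of same-numbered arrays from their group means correlated across probe sets at 0.30, 0.00, -0.34 and 0.22 for replicates 1 to 4. Transgenic replicates 2 and 3 weigh on their group mean, so these values cannot tell whether same-numbered arrays shared a litter or day. Promoter windows were read from RefSeq, build GRCm38.p6. No genome was used. The number of arrays limits the precision.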

Additional observations from a re-analysis of the deposited data

Results flagged for a closer look

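Within a group of 4, an array was singled out when its gap to the nearest other array, as a share of the whole range of the group, exceeded Dixon's limit. This was checked for the 16 probe sets in both groups, 32 times, and held 3 times, where chance flags about 1 in 20. Erbb3 1452482_at was 3.78 in transgenic replicate 2, far above the other 3 arrays of that group. Egfr 1451530_at was 2.54 in wild-type replicate 2, above the other wild-type arrays, and Egfr 1454313_at was 1.73 in wild-type replicate 1, below the others. All 3 are probe sets marked as low, and none was tested.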

How the results depend on the processing

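Under every alternative run, 0 probe sets were higher and 0 lower past the threshold, and 0 genes of the pathway lists passed where those were recomputed. At an unadjusted p under 0.05 there were 206 probe sets with limma and 207 with Welch's test. Only a change of scaling, array weights or the arrays used could move a difference of the family. Under the other alternatives its direction was fixed beforehand, so those values do not show stability. The 9 differences of the family gave 179 recomputed values, the fixed ones included. Of these, 166 kept their direction and their side of the threshold and 13 turned their sign, none of them past the threshold. Those of Egfr 1460420_a_at turned to -0.018 with each array centred on its median, to -0.10 with array weights and to -0.20 without transgenic replicates 2 and 3, and lay between -0.26 and 0.13 when single arrays were left out. Those of Errfi1 1419816_s_at turned to -0.38 with array weights and to -0.53 without transgenic replicates 2 and 3, and lay between -0.30 and 0.30 when single arrays were left out. Errfi1 1416129_at lay between -0.32 and 0.24 when single arrays were left out, and was -0.64 with array weights and -0.40 without transgenic replicates 2 and 3. Each of these 3 started close to 0, and the cause was not tested. Array weights were 6.07, 0.053, 0.419 and 0.915 for transgenic replicates 1 to 4, so that replicate 1 makes up most of the transgenic mean. With them the difference of Erbb2 was 0.07 and that of Erbb3 0.65 (limma adjusted p = 0.301). Both Hbegf probe sets, at -0.48 and -0.52, had the same limma adjusted p. Egfr 1435888_at and 1424932_at had 0.308 and 0.314, and the rest of the 9 had more. The other alternatives of Erbb3 gave a limma adjusted p of 0.639 or more. With the replicate number as a block, 0 probe sets passed and Erbb3 had a limma adjusted p of 0.856, so the replicate block changed no call. The filter above 7 left out the probe sets of Egfr and Erbb2, which then have no value. Egfr 1424932_at, which lay just inside the mark, was also not among the probe sets tested after quantile normalization. The alternative probe set rules left out some of the 9 as well. The number of probe sets at an unadjusted p under 0.05 was 2302 with array weights, and when single arrays were left out it lay between 52, without wild-type replicate 3, and 815, without transgenic replicate 4.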
